A study of Rattus norvegicus with 50 samples.

Results

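The 196 Ensembl gene IDs described here were those raised more than 4-fold in the kidneys of obese rats, in cortex and in medulla alike. Members were chosen by their measured FPKM (fragments counted relative to transcript length and to the mapped fragments of the library). The mean log2(FPKM + 0.5) of obese vehicle rats had to exceed that of lean vehicle rats by at least 2 in both tissues, and the mean FPKM had to be at least 2 in both obese vehicle groups. Of 32545 IDs, 198 met these conditions and 2 of them were left out, so the 196 members made up 0.602% of the table. The difference between obese and lean vehicle chose the members, so it is given as a description without a test. The question addressed was how far enalapril and MK-8722, at 1 or 10 mpk, moved these IDs.

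The obese ZSF1 rat is a model in which obesity, diabetes and high blood pressure are followed by progressive kidney disease. Enalapril inhibits angiotensin-converting enzyme, which makes angiotensin II, a peptide that constricts the efferent arteriole of the glomerulus. Drugs of this class lower the pressure in the glomerulus and are standard treatment of diabetic kidney disease. MK-8722 activates AMP-activated protein kinase (AMPK), a sensor of cellular energy that, when active, shifts cells from synthesis of fat and protein to oxidation of fuel. Diseased kidneys commonly raise genes of tubular injury, inflammation and matrix. None of the members could be assigned to such a group, since the deposited table gives IDs without names and 0 of them matched the reference gene table.

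All rats were of the ZSF1 strain. Lean rats received vehicle, and obese rats received vehicle, enalapril at 10 mpk, MK-8722 at 1 mpk or MK-8722 at 10 mpk. Each of these 5 groups was measured by total RNA sequencing in 5 cortex and 5 medulla libraries, 50 in all. The labels give 28 weeks of treatment beside an age of 20 weeks, and it is not clear how these relate. No label ties a library to an animal, and p-values therefore describe only how far these libraries spread. Without gene names the labelled tissues could not be checked against marker genes.

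Depth differed between groups. The relative depth of a library, recovered from the steps between its low FPKM values, ranged from 0.580 to 1.48 over the 50 libraries. In cortex it lay between 0.788 and 1.297 for obese vehicle, between 1.079 and 1.479 for enalapril, between 0.936 and 1.228 for MK-8722 1 mpk and between 1.00 and 1.467 for MK-8722 10 mpk. Lean cortex libraries lay between 1.223 and 1.385. In medulla the obese vehicle libraries, at 0.58 to 0.789, all lay below the lean libraries, at 0.961 to 1.147. Of the 25 cortex libraries, 8 carried library numbers in a separate, higher range in the labels. They were lean replicates 1 and 7, obese vehicle replicate 5, enalapril replicate 6, MK-8722 1 mpk replicate 7 and MK-8722 10 mpk replicates 5, 6 and 7. The range thus fell unevenly over the groups and in part coincides with the high dose. In bulk tissue, more cells of a type and more RNA per cell cannot be told apart.

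In obese vehicle rats the members ranged from modest to very abundant transcripts. In cortex their median mean FPKM was 1.25 in lean rats against 9.90 in obese vehicle rats, and in medulla 1.83 against 14.9. The lowest and highest members of obese vehicle cortex stood at 2.07 and 817 FPKM, and those of medulla at 2.31 and 1160 FPKM. In lean rats 83 members lay under 1 FPKM in cortex and 65 in medulla. In obese vehicle rats 14 members reached 100 FPKM in cortex and 21 in medulla. All 196 passed the filter for testing in both tissues, of 13579 IDs tested in cortex and 14195 in medulla.

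The rise over lean had a median of 2.37 on the log2 scale in cortex (range 2.00 to 5.12) and 2.51 in medulla (range 2.00 to 5.46). The median over all tested IDs also lay above lean, at 0.30 in cortex and 0.37 in medulla. After each library was rescaled by its median ratio, 90 of the 196 members still met the rule. Without rescaling, the rise reached 3 in both tissues for 23 members, and 4 in at least one tissue for 13. Across the 196 members the rises in cortex and medulla had a Pearson correlation of 0.701, over means of libraries from rats of the same groups. Many members lay close to the threshold. The smaller of an ID's 2 rises was between 2 and 2.2 for 70 members, while for 103 further IDs it lay between 1.8 and 2. The member nearest to the threshold rose by 2.001 in cortex and 2.124 in medulla. The nearest ID outside it rose by 2.593 in cortex and 1.994 in medulla.

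The members moved together within a library, and their mean log2 level above the lean mean summarises each one. In obese vehicle cortex this mean was 2.83, 2.96, 2.29, 1.81 and 2.90. Replicate 5 was the low library of that group, and it was the lowest of the 5 for 186 of the 196 members. It was also the deepest of the group, at a relative depth of 1.297, and its library number was in the higher range. Over all tested IDs its mean was 0.20 above lean, and the other libraries of the group had 0.29 to 0.53. Under enalapril the member mean was 2.17, 1.61, 1.65, 1.67 and 1.60, with replicate 1 above the other 4 and the highest library for 170 members. Under MK-8722 1 mpk it was 2.88, 2.5, 3.0, 2.82 and 2.61. Under MK-8722 10 mpk it was 2.52, 1.74, 1.34, 2.66 and 1.81. The high-dose group thus held 2 libraries, replicates 2 and 6, near the level of obese vehicle and 3 libraries near or below the level of enalapril. Replicates 2 and 6 also had the highest means over all tested IDs in that group, at 0.33 and 0.30 above lean. Every enalapril library lay under every MK-8722 1 mpk library, while the obese vehicle and MK-8722 10 mpk libraries each overlapped with the other groups.

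In medulla the same mean was 2.48, 2.76, 2.37, 2.77 and 3.08 in obese vehicle. It was 1.92, 2.23, 1.81, 2.05 and 2.08 under enalapril, and 2.55, 2.39, 2.76, 2.85 and 2.61 under MK-8722 1 mpk. Again no enalapril library reached a MK-8722 1 mpk library, and here none reached obese vehicle either. Under MK-8722 10 mpk it was 1.73, 2.42, 2.18, 1.56 and 2.59, the widest spread of the medulla groups. Group means ± SD (n = 5) were 2.69 ± 0.281 for obese vehicle, 2.02 ± 0.161 for enalapril, 2.63 ± 0.178 for MK-8722 1 mpk and 2.10 ± 0.441 for MK-8722 10 mpk. The corresponding values in cortex were 2.56 ± 0.494, 1.74 ± 0.243, 2.76 ± 0.201 and 2.01 ± 0.556.

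**Figure D1:**
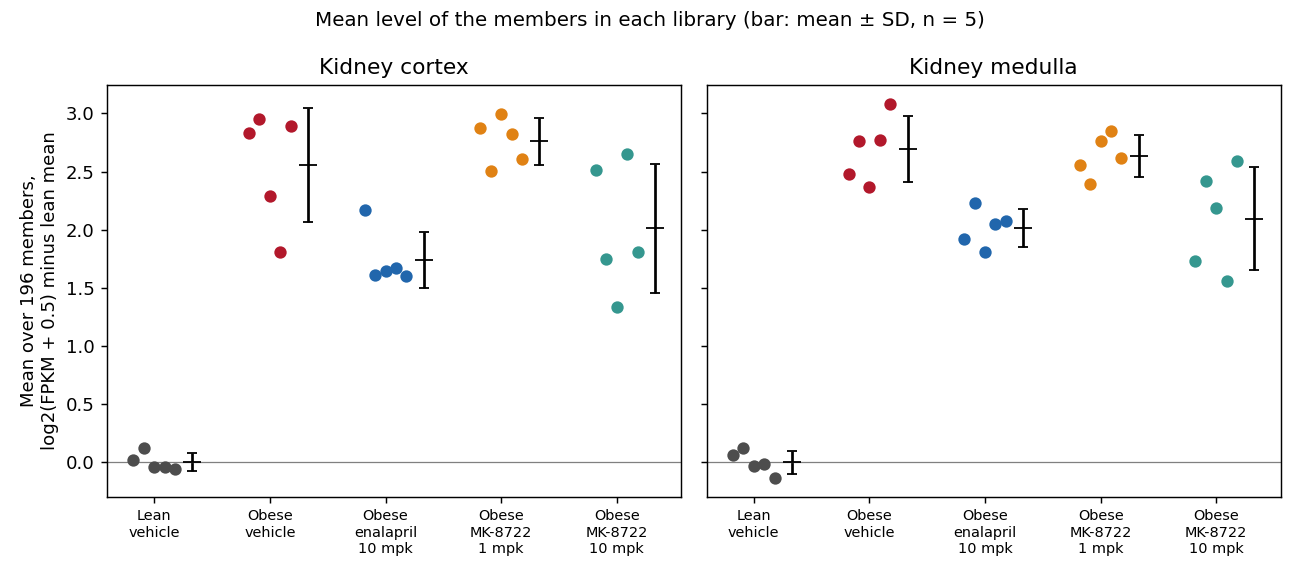
Mean log2(FPKM + 0.5) of the 196 members in each library, minus the lean mean of the tissue; points are libraries in order of their replicate number, and bars give the group mean ± SD (n = 5). Enalapril libraries lie under all MK-8722 1 mpk libraries in both panels, and the MK-8722 10 mpk libraries spread from 1.34 to 2.66 in cortex and from 1.56 to 2.59 in medulla.

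Spread between libraries was wider for the members than for the table as a whole. In cortex the median SD within a group was 0.488 for members and 0.212 for all tested IDs in obese vehicle, and 0.577 and 0.217 under MK-8722 10 mpk. The gap was smaller under MK-8722 1 mpk, at 0.249 and 0.177. In medulla the corresponding medians were 0.306 and 0.172 for obese vehicle, and 0.464 and 0.230 under MK-8722 10 mpk. Lean cortex had medians of 0.186 and 0.134, and lean medulla 0.212 and 0.160.

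In every treated group the mean of each member remained above its lean mean, by margins from large to within error. Under enalapril, 47 of 196 members were still at least 2 above lean on the log2 scale in cortex, 147 were between 1 and 2, and 2 were between 0 and 1. Under MK-8722 1 mpk, 194 were still at least 2 above lean in cortex, and under MK-8722 10 mpk 80 were. In medulla 78 members remained at least 2 above lean under enalapril, 180 under MK-8722 1 mpk and 90 under MK-8722 10 mpk. Of all tested IDs, 0.412%, 2.86% and 0.84% lay at least 2 above lean in these 3 groups in cortex. In medulla the shares were 0.704%, 2.38% and 0.937%. Lean vehicle and the value of 2 belong to the rule that chose the members, so these counts are a description without a test. The smallest margin was that of ENSRNOG00000054065 in cortex, at 0.26 under MK-8722 10 mpk and 0.30 under enalapril, and its treated libraries overlapped with the lean ones. Median mean FPKM in cortex was 5.40 under enalapril, 11.4 under MK-8722 1 mpk and 7.08 under MK-8722 10 mpk, and in medulla 8.57, 13.9 and 9.54.

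**Figure D2:**
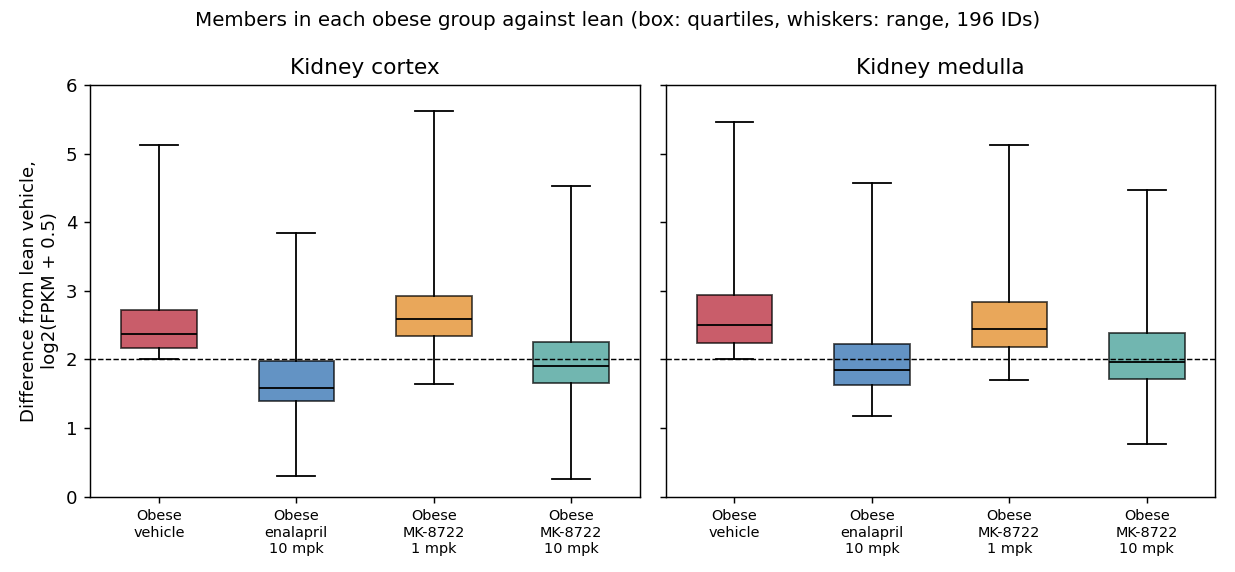
Difference from lean vehicle of the 196 members in each obese group, in log2(FPKM + 0.5); boxes show quartiles with the median, whiskers the full range, and the dashed line the value of 2 that chose the members in obese vehicle. Medians in cortex are 2.37, 1.58, 2.59 and 1.91 from left to right, in medulla 2.51, 1.85, 2.45 and 1.96, and no whisker reaches 0.

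Neither enalapril, MK-8722 1 mpk nor MK-8722 10 mpk libraries took part in choosing the members. The log2 fold changes among these 3 groups therefore share no library with the rule. The spread behind their p-values and calls was pooled over all 25 libraries of a tissue, among them those of the rule. Calls are thus not fully independent of the rule. Tests were run with limma over all tested IDs, and an ID is called where its Benjamini-Hochberg adjusted p is under 0.05.

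Members were lower under enalapril than under MK-8722 1 mpk in both tissues. In cortex 182 of 196 members were called lower and 0 higher, where 28.8% of all tested IDs were called lower. The median log2 difference was −0.98 for members (quartiles −1.14 and −0.86) and −0.20 for all tested IDs, and all 196 members had a negative value. Of the 182, 86 were called with a fall of 2-fold or more. For 146 members all 5 enalapril libraries lay below all 5 MK-8722 1 mpk libraries, as they did for 19.1% of all IDs. In medulla 75 members were called lower and 0 higher, against 4.33% of all IDs called lower, with a median of −0.58 for members and −0.09 for all IDs. The libraries did not overlap, in that direction, for 88 members and for 5.32% of all IDs. Enalapril kept a median of 62.9% of the log2 rise over lean seen with MK-8722 1 mpk in cortex, and 76.2% in medulla. Such percentages use the lean libraries, which took part in choosing the members.

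Rescaling each library by its median ratio took the median of all IDs in the cortex comparison to 0.01, and the calls among all IDs from 474 higher and 3912 lower to 1439 and 1367. After it 167 members were called lower, against 10.1% of all IDs, with a member median of −0.77. The depth term left 132 cortex members called lower, against 10.9% of all IDs. In medulla the calls over all IDs went from 395 higher and 615 lower to 562 and 431, and 70 members were called lower against 3.05%. The cortex count was 164 to 185 when any single library was left out, beside 2677 to 4280 of all IDs called lower. The medulla count became 30, 19 or 7 when MK-8722 1 mpk replicate 1, 4 or 6 was left out. All IDs called lower were then 148, 140 or 45, against 615 in the main fit. Leaving out enalapril replicate 2, 5 or 7 gave 29, 9 or 43 members, beside 250, 47 or 249 of all IDs.

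The largest falls in this comparison in cortex were those of ENSRNOG00000054065 and ENSRNOG00000003666. ENSRNOG00000054065 was at 3.67, 12.8, 15.7, 23.3 and 35.1 FPKM under enalapril, and at 14.9, 46.1, 93.5, 105 and 155 FPKM under MK-8722 1 mpk. The groups overlapped, and the enalapril values reached down into and below the lean range of 8.50 to 14.6 FPKM. Its log2 fold change was −2.10 (SE 0.73, limma adjusted p = 0.0335), and the call was lost under 10 of 19 alternative settings. ENSRNOG00000003666 was at 0.543, 0.983, 1.89, 4.66 and 6.36 FPKM under enalapril and at 4.89 to 16.5 FPKM under MK-8722 1 mpk. The groups overlapped, and obese vehicle lay between them in mean, at 1.16 to 8.11 FPKM. The log2 fold change of enalapril against MK-8722 1 mpk was −1.99 (SE 0.57, limma adjusted p = 0.0136). Against obese vehicle it was 1.17 for MK-8722 1 mpk and −0.83 for enalapril, neither of them called.

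In medulla ENSRNOG00000016460, with ENSRNOG00000014714, fell most. ENSRNOG00000016460 was the most abundant member there, at 705 to 1803 FPKM in obese vehicle and 49.3 to 65.7 FPKM in lean medulla. Its enalapril libraries stood at 362, 365, 394, 419.9 and 613 FPKM, and its MK-8722 1 mpk libraries at 834, 1219, 1238, 1482 and 1621 FPKM. The 2 groups did not overlap, and the log2 fold change was −1.56 (SE 0.31, limma adjusted p = 0.0112). In cortex the same ID was at 196 to 349 FPKM under enalapril and at 624 to 1064 FPKM under MK-8722 1 mpk, a fold change of −1.85 (SE 0.36, limma adjusted p = 0.00244). ENSRNOG00000014714, nearly silent in lean medulla at 0.0313 to 0.127 FPKM, was at 2.68 to 7.24 FPKM under enalapril and at 9.62 to 17.2 FPKM under MK-8722 1 mpk. The libraries did not overlap, and the log2 fold change was −1.73 (SE 0.34, limma adjusted p = 0.0105). Each of these 2 medulla calls was lost under 1 of 17 alternative settings.

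The higher dose of MK-8722 also gave lower members than the lower dose. In cortex 126 members were called lower and 0 higher at 10 mpk than at 1 mpk, against 28.0% of all IDs called lower. Members had a median log2 difference of −0.70 (quartiles −0.91 and −0.57) and all IDs −0.21, and 194 of the 196 members had a negative value. Libraries at 10 mpk all lay below those at 1 mpk for 30 members, and for 9.44% of all IDs. In medulla 50 members were called lower and 0 higher, against 4.90% of all IDs, with medians of −0.47 for members and −0.13 for all IDs. There was no overlap for 20 members and for 3.86% of all IDs. The high dose kept a median of 72.6% of the rise over lean seen at the low dose in cortex and 80.5% in medulla.

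A fit with relative depth as a term called 4 members (2.04%) lower in this dose comparison in cortex, near the 1.63% of all IDs called lower. In medulla it called 30 (15.3%), beside 2.44% of all IDs, and after rescaling the counts were 66 (4.50% of all IDs) and 27 (1.13% of all IDs). Rescaling took the calls over all IDs from 304 higher and 3802 lower to 708 and 607 in cortex, and from 145 and 695 to 249 and 160 in medulla. Leaving out replicate 4 of either dose brought the cortex count to 81, and leaving out replicate 5 of the high dose brought it to 46. All IDs called lower were then 2575 without high-dose replicate 4, 2405 without low-dose replicate 4 and 1561 without high-dose replicate 5. The number range as a term left 79 cortex members, beside 2131 of all IDs, and the lower range alone 23, beside 379. In medulla, omission of high-dose replicate 1, 2, 3, 5 or 6 left 14, 79, 29, 9 or 97 called members. Beside these, 152, 1194, 356, 94 or 1394 of all IDs were called lower. Omission of low-dose replicate 4, 6 or 7 left 19, 12 or 29, beside 236, 106 or 295 of all IDs.

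ENSRNOG00000057092 and ENSRNOG00000024899 stood out for their response to the high dose. In cortex ENSRNOG00000057092 was at 13.0, 15.1, 15.7, 16.6 and 39.1 FPKM at 1 mpk and at 3.05, 3.32, 3.96, 4.33 and 9.76 FPKM at 10 mpk. The groups did not overlap, and the high-dose values came near the lean range of 1.69 to 2.75 FPKM. Its log2 fold change was −1.92 (SE 0.31, limma adjusted p = 4.55e-04), and in medulla −1.23 (SE 0.26, limma adjusted p = 0.0124). The cortex call was lost under 1 of 19 alternatives, the one limited to libraries of the lower number range. ENSRNOG00000024899 in medulla was at 20.0, 22.7, 23.8, 24.1 and 27.6 FPKM at 1 mpk and at 5.21, 6.0, 7.93, 9.83 and 10.3 FPKM at 10 mpk. Here too the groups were apart, with lean medulla at 1.68 to 2.92 FPKM. The log2 fold change was −1.57 (SE 0.20, limma adjusted p = 1.48e-04) in medulla and −1.18 (SE 0.28, limma adjusted p = 0.00612) in cortex, and the medulla call held under all 17 alternatives.

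Among the other named falls of the dose comparison, ENSRNOG00000054065 in cortex was at 14.9 to 155 FPKM at 1 mpk and 5.19 to 26.7 FPKM at 10 mpk (log2 fold change −2.15, SE 0.73, limma adjusted p = 0.0321). ENSRNOG00000006151 was listed at 0 in all 10 lean libraries. In medulla it was at 2.13, 3.26, 4.61, 5.52 and 5.96 FPKM at 1 mpk and at 0, 1.03, 1.61, 2.09 and 2.54 FPKM at 10 mpk. Its groups overlapped slightly, with a log2 fold change of −1.46 (SE 0.40, limma adjusted p = 0.0358). These calls were lost under 13 of 19 and 14 of 17 alternatives.

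At the matched dose of 10 mpk the main fit called few members between MK-8722 and enalapril. Most of those called were higher under MK-8722. In cortex 13 members were called higher and 1 lower under MK-8722, against 3.83% of all IDs called higher and 5.80% called lower. The member median was 0.29 (quartiles 0.10 and 0.45), with all IDs at −0.01, and 30 members had a negative value. In medulla 5 were called higher and 1 lower, against 0.817% and 1.92% of all IDs, with medians of 0.09 for members and −0.05 for all IDs. In cortex the replicate numbers as a block called 77 members higher and 1 lower, beside 1024 and 923 of 13579 IDs. Relative depth as a term called 37 higher and 1 lower, beside 734 and 814 IDs. Rescaling called 28 higher and 1 lower, beside 712 and 754 of 13476 IDs. The cortex total of 14 became 27 without MK-8722 10 mpk replicate 5, and 6 without enalapril replicate 2 or 7. It became 5 without enalapril replicate 4 or 6 or MK-8722 10 mpk replicate 2 or 6. These fits called 373 to 575 of all IDs higher and 578 to 881 lower. The medulla total of 6 became 10 without high-dose MK-8722 replicate 5. It became 3 without high-dose replicate 2 or 3 or enalapril replicate 7. These medulla fits called 48 to 188 of all IDs higher and 86 to 353 lower.

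The members with the largest excess under MK-8722 in cortex were ENSRNOG00000015992 and ENSRNOG00000016164. ENSRNOG00000015992 in cortex was at 1.92, 2.39, 2.43, 2.95 and 4.97 FPKM under enalapril and at 4.62, 8.22, 9.81, 10.1 and 12.2 FPKM under MK-8722 10 mpk. A single pair of libraries overlapped, and obese vehicle lay at 3.23 to 7.83 FPKM. The log2 fold change of MK-8722 10 mpk over enalapril was 1.46 (SE 0.29, limma adjusted p = 0.00189), called under all 19 alternatives. In medulla the difference for this ID was 0.42 (SE 0.24, limma adjusted p = 0.427). ENSRNOG00000016164 in cortex was at 3.86 to 7.42 FPKM under enalapril and at 6.55 to 15.3 FPKM under MK-8722 10 mpk, a log2 fold change of 1.09 (SE 0.24, limma adjusted p = 0.00478). In medulla it was higher by 1.00 (SE 0.26, limma adjusted p = 0.0346).

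In medulla ENSRNOG00000008816 and ENSRNOG00000013578 showed the widest excess over enalapril. ENSRNOG00000008816 was at 29.7, 33.8, 35.8, 43.1 and 43.3 FPKM under enalapril and at 48.2, 51.5, 83.1, 108 and 113 FPKM under MK-8722 10 mpk. The groups did not overlap, and the 3 highest MK-8722 libraries lay above the obese vehicle range of 40.5 to 67.6 FPKM. The log2 fold change was 1.03 (SE 0.21, limma adjusted p = 0.00890) in medulla and 0.74 (SE 0.21, limma adjusted p = 0.0244) in cortex. ENSRNOG00000013578 was at 5.06 to 8.79 FPKM under enalapril and at 8.97 to 22.5 FPKM under MK-8722 10 mpk in medulla, again with no overlap (log2 fold change 1.03, SE 0.23, limma adjusted p = 0.0160).

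The reverse order was seen for ENSRNOG00000057092 in cortex, at 7.92, 10.3, 11, 11.8 and 19.9 FPKM under enalapril against 3.05 to 9.76 FPKM under MK-8722 10 mpk, where 1 high library overlapped. It was lower under MK-8722 by a log2 fold change of −1.29 (SE 0.31, limma adjusted p = 0.00769), a call lost with libraries of the lower number range alone (adjusted p = 0.614). ENSRNOG00000024899 in medulla was at 10.6 to 16.9 FPKM under enalapril and 5.21 to 10.3 FPKM under MK-8722 10 mpk, with no overlap. Its log2 fold change was −0.79 (SE 0.20, limma adjusted p = 0.0348), lost under 11 of 17 alternatives with adjusted p of 0.0547 to 0.118.

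**Figure D3:**
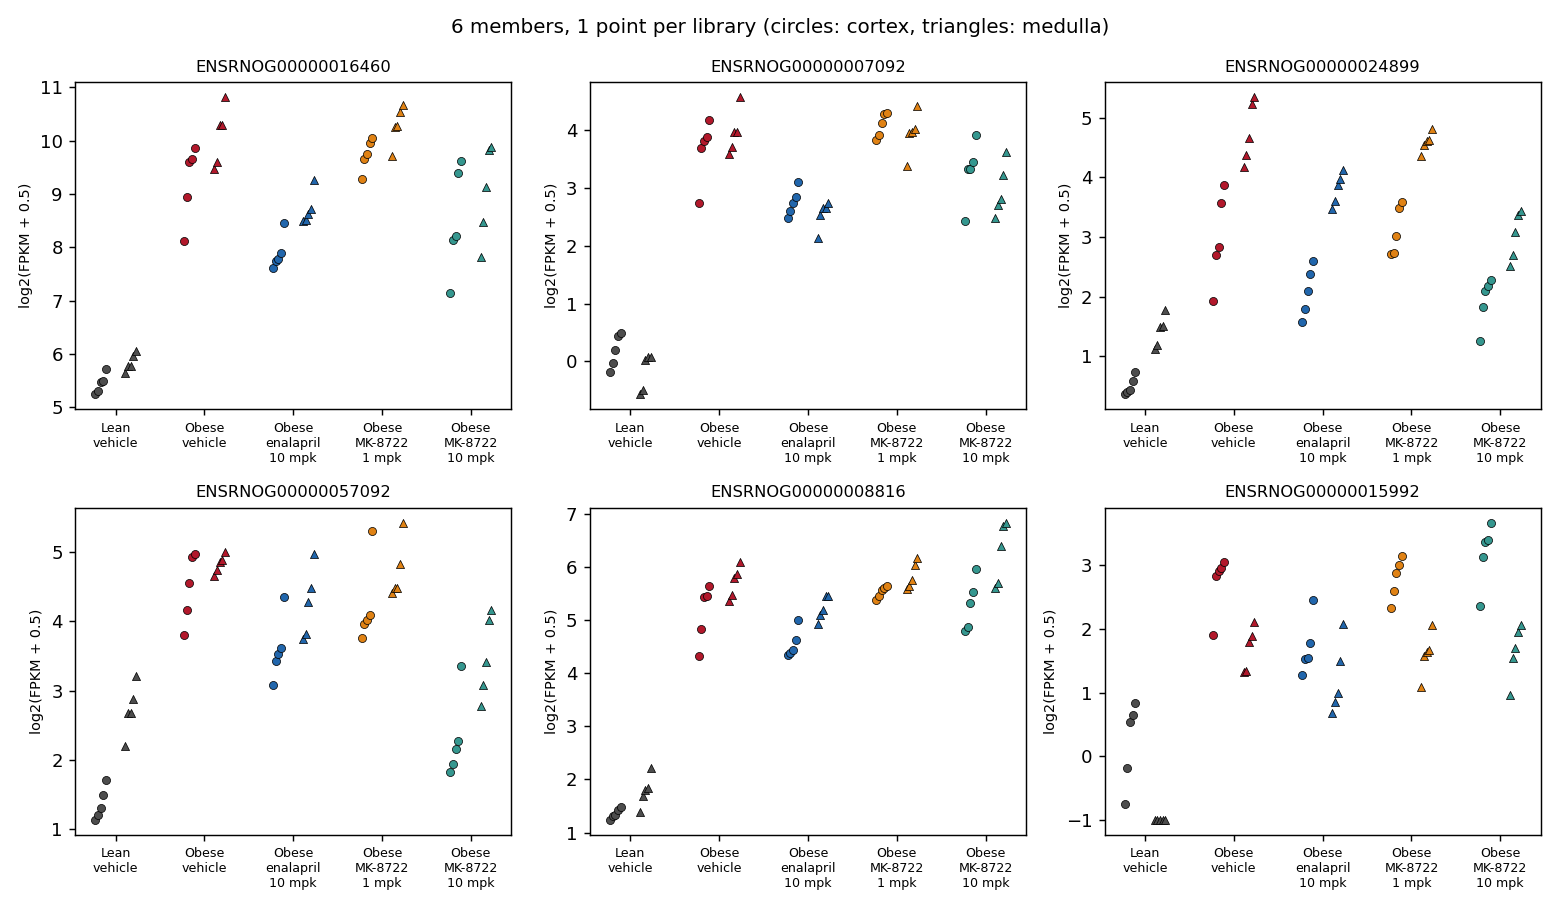
Levels of 6 members in log2(FPKM + 0.5), 1 point per library, for lean vehicle and the 4 obese groups; circles are cortex and triangles medulla, and each panel has its own vertical axis. ENSRNOG00000024899 and ENSRNOG00000057092 have their lowest mean of the obese groups at MK-8722 10 mpk in medulla. ENSRNOG00000008816 in both tissues and ENSRNOG00000015992 in cortex have lower means under enalapril than under MK-8722 10 mpk. In medulla the ENSRNOG00000015992 libraries of these groups overlap.

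Comparisons with obese vehicle share their obese libraries with the rule that chose the members, and with each other. The choice of IDs with high obese vehicle means and an effect of treatment cannot be told apart there, so these counts are only a description. Enalapril against obese vehicle gave 133 members called lower and 0 higher in cortex, beside 13.9% of all IDs, with a member median of −0.79 and −0.18 over all IDs. In medulla it gave 116 lower and 0 higher, beside 9.06%, with medians of −0.64 and −0.14. MK-8722 10 mpk gave 61 lower and 0 higher in cortex, beside 24.5%, with medians of −0.51 and −0.19. In medulla it gave 97 lower, beside 16.5%, and 2 higher, beside 1.60%, with medians of −0.56 and −0.18.

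MK-8722 1 mpk gave 0 called members in either tissue with limma, and 0% of all IDs were called in cortex as in medulla. At an unadjusted p under 0.05 there were 4 members among 583 IDs in cortex and 1 member among 577 IDs in medulla. The member median was 0.18 in cortex, where 181 of 196 members lay above obese vehicle. It was −0.05 in medulla, where 140 lay below. No member with MK-8722 1 mpk was thus distinguishable from obese vehicle at an adjusted p under 0.05 with 5 libraries a group.

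The counts against obese vehicle changed when single libraries were left out or depth entered the fit. Enalapril in cortex gave 0, 2 or 1 called members without obese vehicle replicate 2, 1 or 6. All IDs called lower were then 19, 29 or 29, against 1894 in the main fit. It gave 54, 2, 48 or 28 members without enalapril replicate 2, 4, 6 or 7, beside 567, 39, 399 or 252 of all IDs. MK-8722 10 mpk in cortex gave 33, 26, 133 or 33 without obese vehicle replicate 1, 2, 5 or 6. All IDs called lower were then 2168, 1547, 4847 or 2176, against 3327 in the main fit. It gave 96, 34, 23, 117 or 35 without its own replicate 2, 4, 5, 6 or 7. Beside these, 4213, 2364, 1667, 4076 or 2423 of all IDs were called lower. Enalapril in medulla gave 62, 48 or 3 without obese vehicle replicate 4, 6 or 7, and 74 or 5 without enalapril replicate 2 or 5. All IDs called lower, 1286 in the main fit, were 469 or 356 without obese vehicle replicate 4 or 6. They were 808 or 24 without enalapril replicate 2 or 5. MK-8722 10 mpk in medulla gave 59 or 43 without obese vehicle replicate 6 or 7, and 56 or 46 without its own replicate 1 or 5. Without its own replicate 1 or 5, all IDs called lower were 1218 or 1084, against 2345 in the main fit. Entering relative depth in the fit left 0 called cortex members for enalapril, and 1 for high-dose MK-8722, where 0.00736% and 2.23% of all IDs were called lower. Rescaling gave 45 and 27 in cortex, beside 1.28% and 3.68% of all IDs called lower.

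**Figure D4:**
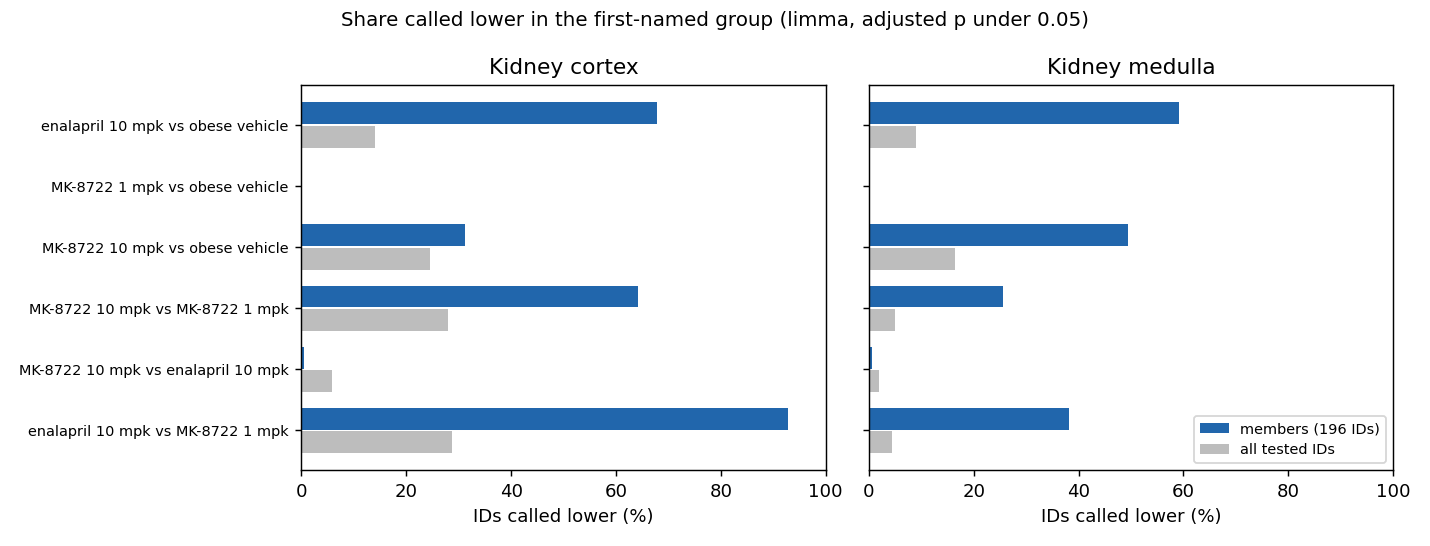
Percent of the 196 members (blue) and of all tested IDs (grey) called lower in the first-named group of each comparison, by limma with an adjusted p under 0.05. The widest gap is for enalapril against MK-8722 1 mpk in cortex, at 92.9% and 28.8%; comparisons with obese vehicle share libraries with the choice of the members.

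Individual members illustrate these values. The IDs named are those with the largest called changes, and obese vehicle libraries took part in choosing the members. Their p-values against obese vehicle, here and below, are therefore a description and no independent test. ENSRNOG00000007092 in medulla was at 11.5, 12.6, 15.1, 15.1 and 23.3 FPKM in obese vehicle and at 3.87, 5.26, 5.78, 5.80 and 6.20 FPKM under enalapril, with lean at 0.176 to 0.556 FPKM. The enalapril libraries lay well below obese vehicle, with a log2 fold change of −1.42 (SE 0.21, limma adjusted p = 0.00499). Its fold change against MK-8722 1 mpk uses no obese vehicle mean. It was −1.41 (SE 0.21, limma adjusted p = 0.00207) in medulla and −1.33 (SE 0.23, limma adjusted p = 0.00141) in cortex. ENSRNOG00000014714 had a fold change of −1.62 (SE 0.34, limma adjusted p = 0.0158) for enalapril against obese vehicle in medulla.

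ENSRNOG00000046699 in medulla was at 9.75, 14.4, 17.3, 24.0 and 28.6 FPKM in obese vehicle and at 3.52, 4.13, 4.26, 5.96 and 8.05 FPKM under MK-8722 10 mpk. The libraries were apart, with a log2 fold change of −1.73 (SE 0.31, limma adjusted p = 0.00177). ENSRNOG00000024899 had a fold change of −1.74 (SE 0.20, limma adjusted p = 1.99e-05) in the same comparison. The 2 members called higher under MK-8722 10 mpk in medulla were ENSRNOG00000013578, at 0.68 (SE 0.23, limma adjusted p = 0.0412), and ENSRNOG00000027811, at 0.55 (SE 0.19, limma adjusted p = 0.0473). ENSRNOG00000027811 went from 9.37 to 12 FPKM in obese vehicle to 8.94 to 23.4 FPKM under MK-8722 10 mpk, with overlap. The first call was lost under 11 of 17 alternatives and the second under 13.

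In cortex ENSRNOG00000057092 had a fold change of −2.18 (SE 0.31, limma adjusted p = 7.01e-05) for MK-8722 10 mpk against obese vehicle, from 13.4 to 31.0 FPKM in obese vehicle. ENSRNOG00000054065 had −2.11 (SE 0.73, limma adjusted p = 0.0373) in that comparison, from 15.7 to 207 FPKM in obese vehicle. Its call was lost under 13 of 19 alternatives. Under enalapril in cortex, ENSRNOG00000025571 was at 0.494 to 1.61 FPKM against 1.65 to 5.76 FPKM in obese vehicle (log2 fold change −1.66, SE 0.37, limma adjusted p = 0.0196). ENSRNOG00000007778 was at 2.01 to 3.73 FPKM against 4.77 to 12.4 FPKM (log2 fold change −1.43, SE 0.33, limma adjusted p = 0.0201). Each of these 2 enalapril calls was lost under 6 of 19 alternatives.

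Cortex and medulla were set side by side for comparisons of treated groups with one another. Of the members called lower under enalapril than under MK-8722 1 mpk, 73 were called in both tissues, which was 40.1% of the cortex list and 97.3% of the medulla list. Of all 196 members, 92.9% were called lower in cortex and 38.3% in medulla, so both shares lie close to those of the members as a whole. A further 109 were called in cortex and not in medulla, 2 in medulla and not in cortex, and 12 in neither. For the dose comparison 43 members were called lower in both tissues, 34.1% of the cortex list and 86.0% of the medulla list. Of all members 64.3% were called lower there in cortex, and 25.5% in medulla. Across the 196 members the log2 fold changes of the 2 tissues had a Pearson correlation of 0.42 for enalapril against MK-8722 1 mpk and 0.579 for the dose comparison. The points share group and low-level noise, and the labels do not say whether the tissues came from the same rats.

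**Figure D5:**
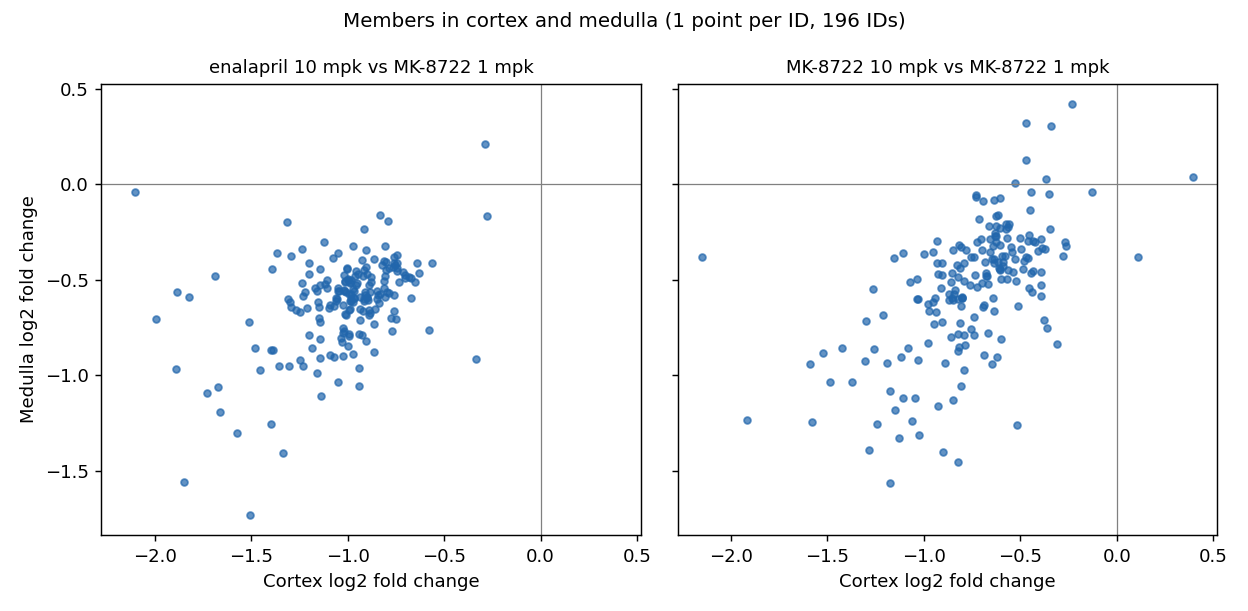
Log2 fold changes of the 196 members in cortex (horizontal) and medulla (vertical), 1 point per ID, for enalapril 10 mpk against MK-8722 1 mpk and for MK-8722 10 mpk against 1 mpk. Nearly all points lie below 0 on both axes, with exceptions of 1 member in the enalapril panel, in medulla, and of 2 in cortex and 7 in medulla in the dose panel.

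A call in one tissue and not in the other is no difference between tissues, and none was called when tested. The interaction of tissue with treatment, fitted over all 50 libraries, gave 0 called members for enalapril against obese vehicle, for MK-8722 10 mpk against obese vehicle and for the dose comparison. Called IDs in the whole table made up 0.00686%, 0.226% and 0.130%. At an unadjusted p under 0.05 limma gave 1, 5 and 10 of the 196 members, counts that chance alone can give at that threshold. The interaction for enalapril against MK-8722 1 mpk was not tested. The smallest adjusted p of a member was 0.937, 0.332 and 0.295, the last 2 for ENSRNOG00000027811.

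The members were on the whole more abundant in medulla than in cortex. The median log2 difference of medulla minus cortex was 0.31 in lean rats and 0.42 in obese vehicle rats, beside 0.14 and 0.19 over the IDs tested in both tissues. It was 0.59 under enalapril, 0.21 under MK-8722 1 mpk and 0.43 under MK-8722 10 mpk. In obese vehicle rats 174 of 196 members were higher in medulla, 31 of them by 2-fold or more, while 1 was higher in cortex by 2-fold or more.

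The 49 members with the largest rises in obesity had the most negative median differences among the treated groups, as a description across IDs. With the members in 4 sets of 49, from the smallest rises to the largest, the median log2 differences were −0.89, −0.97, −1.0 and −1.15 for enalapril against MK-8722 1 mpk in cortex. In medulla these medians were −0.50, −0.59, −0.60 and −0.71. The dose comparison had −0.63, −0.68, −0.69 and −0.95 in cortex. In medulla it had −0.43, −0.50, −0.41 and −0.84, with no order among the first 3 sets. Numbers of called members did not follow the rise in cortex, at 47, 46, 45 and 44 for enalapril and 30, 38, 28 and 30 for the dose comparison. Spearman correlations of the difference with the rise across 196 members were −0.392 and −0.414 for enalapril against MK-8722 1 mpk in cortex and medulla, and −0.344 and −0.300 for the dose comparison. The treated groups compared share no library with the rise. Correlations with the obese vehicle FPKM were weaker, at −0.155 and 0.015 for enalapril and −0.263 and −0.005 for the dose comparison.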

How the data were processed

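The authors deposited FPKM values for 32545 Ensembl IDs and 50 libraries, per the file headers; aligner and counting tool: not given in the sources used here, nor is the build. Tests used log2(FPKM + 0.5), a scale that understates changes of low IDs, with limma 3.58.1 in R 4.3.3 (trend and robust moderation, two-sided). Tables were made with Python 3.11.15 and pandas 2.3.3. IDs with an FPKM of at least 1 in 5 libraries of a fit were tested. A fit per tissue used its 25 libraries, 1 mean for each group and no covariate, and a joint fit of 50 libraries gave tissue differences. An ID was called at a p under 0.05 after Benjamini-Hochberg adjustment across the IDs tested.

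The members, lists and tests were chosen with earlier results of these data known. The 13 gene lists, the cell type markers and the promoter motifs could not be applied, and no sequence could be printed, because 0 IDs matched names in the reference tables. The named IDs are therefore the up to 2 members called with the largest rise and the up to 2 with the largest fall in each comparison of obese groups and tissue, 16 in all. Absolute depth is unknown. Low values were whole multiples of 1 read, within 0.1 reads, for 95.5% of 58820 values in 5129 IDs, which gave relative depths and limits the precision of low IDs. No 2 libraries of a group held identical values.

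Replicate numbers recur across groups. For MK-8722 10 mpk and obese vehicle in cortex, same-numbered libraries were compared by their deviations from group means. These correlated at r of 0.242 to 0.41 in all 3 pairs. In no other comparison did r exceed 0.1 in every pair. No label states a pairing, so the main fit had no block, and the numbers entered only as an alternative. Alternatives were a pseudocount of 0.1, no filter, median-ratio rescaling, the 2 groups alone, the replicate block, relative depth as a term with and without the block, the range of library numbers, and leaving out each library. Restricting the members to the 90 that met the rule after rescaling was chosen after seeing the data. The procedures were tested on simulated data.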

Additional observations from a re-analysis of the deposited data

Results flagged for a closer look

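In 12 of 166 groups of 5 values examined (the mean over members and the 16 named IDs, by tissue and treatment) 1 library stood apart from the other 4, which is 7.23%; chance gives about 1 in 20. The mean over members was 2.17 above lean in enalapril cortex replicate 1, which also held the high ENSRNOG00000016460 value of 349 FPKM. In enalapril medulla replicate 3 was high for ENSRNOG00000016460, at 613 FPKM, and for ENSRNOG00000014714, at 7.24 FPKM. ENSRNOG00000057092 in cortex was high in MK-8722 1 mpk replicate 4, at 39.1 FPKM, and in MK-8722 10 mpk replicate 2, at 9.76 FPKM. MK-8722 10 mpk replicate 6 was high for ENSRNOG00000007778 in cortex, at 14.6 FPKM, and for ENSRNOG00000003666 in medulla, at 8.36 FPKM. ENSRNOG00000015992 was low in obese vehicle cortex replicate 5, at 3.23 FPKM. ENSRNOG00000025571 was high in cortex in enalapril replicate 2, at 1.61 FPKM, and in lean replicate 3, at 0.144 FPKM, where the other 4 lean libraries were listed at 0. ENSRNOG00000046699 was high in lean medulla replicate 3, at 1.99 FPKM.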

How the results depend on the processing

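The number of called members depended on the setting in 9 of 12 comparisons within a tissue. Enalapril against MK-8722 1 mpk in cortex (182) stayed within 1.5 times throughout, and MK-8722 1 mpk against obese vehicle and the 3 tissue differences stayed at 0. The cause of each shift below was not tested. Rescaling gave 45 for enalapril against obese vehicle and 27 for MK-8722 10 mpk against obese vehicle in cortex. It gave 66 for MK-8722 10 mpk against 1 mpk and 29 for MK-8722 10 mpk against enalapril in cortex. The same comparisons gave 62, 40, 27 and 10 in medulla. Of all IDs, 1.28%, 3.68% and 4.50% were called lower for the first 3 in cortex, and 1.73%, 2.08% and 1.13% in medulla. For MK-8722 10 mpk against enalapril, 5.28% and 1.27% were called higher. Relative depth as a term gave 0, 1, 4 and 38 for these comparisons in cortex, with 0.00736%, 2.23% and 1.63% of all IDs lower for the first 3. For the last 3 in medulla it gave 34, 30 and 13, with 127 for enalapril against MK-8722 1 mpk. Of all IDs, 5.08% and 2.44% were lower for the first 2 of these and 8.21% for enalapril against MK-8722 1 mpk. MK-8722 10 mpk against enalapril had 5.41% of all IDs higher in cortex and 1.39% in medulla. A fit of the 2 groups alone left 61, 5, 77 and 7 in cortex. All IDs called there were 459, 411 and 1832 lower for the first 3, and 345 higher for the last. In medulla it left 20, 5 and 0 for the last 3, with 125 for enalapril against MK-8722 1 mpk. All IDs called there were 404 and 39 lower, 17 higher and, for enalapril against MK-8722 1 mpk, 784 lower. No filter gave 7 for MK-8722 10 mpk against enalapril in cortex, beside 454 of all IDs higher and 641 lower. In medulla it gave 3 for that comparison, 29 for the dose comparison and 40 for enalapril against MK-8722 1 mpk. All IDs called there were 89 higher for the first, and 311 and 243 lower for the others. In cortex the number range as a term gave 30 for MK-8722 10 mpk against obese vehicle and 79 for the dose comparison. All IDs called lower there were 1958 and 2131. The lower number range alone gave 38, 23 and, against enalapril, 4. All IDs called there were 866 and 379 lower and, against enalapril, 114 higher. The rule itself took 334 IDs with a pseudocount of 0.1 and 90 after rescaling. Of those 90, chosen after seeing the data, 82 in cortex and 38 in medulla were called lower under enalapril than under MK-8722 1 mpk. In that main fit 28.8% and 4.33% of all IDs were called lower.

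The replicate block for MK-8722 10 mpk against obese vehicle in cortex gave 84 members against 61 in the main fit. All IDs called lower were 3678 against 3327. In that comparison 5 of 6 libraries correlated best with their own number. No label says that same-numbered libraries share more than a number. Elsewhere the block gave 78 for MK-8722 10 mpk against enalapril in cortex, beside 1024 of all IDs higher and 923 lower. In medulla it gave 52 for MK-8722 10 mpk against obese vehicle, 9 for the dose comparison and 7 for enalapril against MK-8722 1 mpk. All IDs called lower there were 1024, 65 and 39. The block with relative depth left 0, 0, 8 and 87 in cortex, in the order used for rescaling. All IDs called there were 0, 172 and 300 lower and, for the last, 1176 higher. In medulla it left 21, 10 and 1 for the first 3, with 28 for enalapril against MK-8722 1 mpk. All IDs called lower there were 177, 117, 27 and 173. Leaving out 1 library gave, in the same order, 0 to 181, 23 to 133, 46 to 161 and 5 to 27 in cortex. For enalapril against MK-8722 1 mpk it gave 164 to 185 there. The medulla ranges were 3 to 147, 43 to 132, 9 to 97, 3 to 10 and 7 to 112. Calls over all IDs moved in these fits too, as given above. Of 430 values of the named IDs under alternatives, 319 kept their call, 110 kept their direction without it and 1 reversed: ENSRNOG00000054065 in cortex, MK-8722 10 mpk against obese vehicle, at 0.316 (adjusted p = 0.852) with the block and depth. Absolute depth is unknown, so changes of IDs near 0 FPKM are imprecise.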
